A study of Mus musculus with 6 samples.

Results

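Sonic hedgehog (Shh) and the genes that make, release, receive and transmit its signal were described in mouse dorsal root ganglion neurons that express parvalbumin, with and without a knockout of Dicer. The genes were chosen by name: Shh, Hhat, Disp1 and Disp2 on the ligand side, and Ptch1, Smo, Sufu, Gli1, Gli2 and Gli3 on the response side. Of these 10 names, 9 matched a row among the 31469 rows of the expression table. The level of Smo, the membrane protein that Ptch1 inhibits, is not analysed here. The choice rule would have used the mean level to decide between several rows of a name, but each of the 9 names had 1 row. The set was proposed with results of these libraries known, so the fitted values below are descriptions of these genes and not independent evidence that the pathway was affected.

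There were 3 knockout (KO) libraries, in which Dicer, the ribonuclease that cuts microRNA precursors, was ablated by a Cre recombinase driven by parvalbumin, and 3 wild-type (WT) libraries. Both groups were C57BL/6 mice at postnatal day 21, and both were parvalbumin-positive neurons from the ganglion at lumbar level 4. The Cre acts only in cells that have expressed parvalbumin, which in this ganglion marks mainly proprioceptors, the sensory neurons that report muscle length and tension. Nothing in the labels ties a library to 1 animal or to a pool of animals, so p-values measure the spread between these libraries, which may be in part technical.

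In the Hedgehog pathway, a secreting cell attaches fatty acid and cholesterol to the ligand and releases it, and a receiving cell binds it through Ptch1, which frees Smo to activate the Gli transcription factors. Gli1 and Ptch1 are themselves switched on by the signal, and so their transcripts are commonly read as a sign of a cell that is responding. Sensory neurons are known to make Shh and to deliver it along their axons to responding cells in the skin, so the ligand and the response can lie in different cells.

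Levels are in TPM, a length-corrected share of all transcripts that sums to 1000000 in each library. Each library had 13237 to 13960 rows at 1 TPM or more, and correlations of log2 values across tested rows were 0.963 to 0.973 within KO, 0.949 to 0.968 within WT and 0.925 to 0.964 between the groups. Dicer1 was at 24.0, 20.8 and 21.8 TPM in KO libraries and at 36.7, 26.0 and 48.7 TPM in WT libraries, a log2 difference of -0.68 that did not pass the test (limma adjusted p = 0.104). The value covers the whole gene and so cannot show how completely a part of it was deleted. Pvalb, the parvalbumin gene, was at 4.02, 3.69 and 13.98 TPM in KO libraries and at 25.1, 19.7 and 23.1 TPM in WT libraries (log2 fold change -1.73, limma adjusted p = 0.0452). Of the 8 proprioceptor markers found, 7 (Pvalb, Runx3, Etv1, Spp1, Heg1, Nxph1 and Esrrg, but not Ntrk3) were called lower in KO, beside 3.17% of all tested rows. The marker list was drawn up with earlier results of these data known. The Y-linked gene Ddx3y was at 32.7 TPM in KO replicate 3 and 33.3 TPM in WT replicate 3 and at 0.02 TPM or less in the other libraries, so replicate 3 differed in sex from replicates 1 and 2 in both groups.

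The RNA of the ligand gene was lower in KO libraries. Shh, which encodes the secreted signal itself (chromosome 5, 28456815 to 28467256, minus strand, GRCm38), had 28.0, 28.6 and 34.1 TPM in KO libraries, against 82.0, 66.6 and 92.1 TPM in WT libraries. The 3 KO values lay close together, and the highest of them was below the lowest WT value. The means were 30.3 ± 3.34 TPM in KO and 80.2 ± 12.8 TPM in WT (SD, n = 3 each), so the KO mean was 0.377 of the WT mean. On the log2(TPM + 1) scale the fold change was -1.37 (SE 0.16, 95% interval -1.73 to -1.02, limma adjusted p = 0.00355). The test covered the 13787 rows that averaged 1 TPM or more over the 6 libraries, and 215 of them had a lower fold change. In level, Shh stood above 65.7% of tested rows in KO libraries and above 83.3% in WT libraries. Fewer Shh-expressing cells and less Shh RNA per cell cannot be told apart in such bulk libraries.

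The other ligand-side members did not pass the test. Disp2, a relative of the ligand exporter Disp1, had 122, 128 and 138 TPM in KO libraries and 157, 160 and 167 TPM in WT libraries (chromosome 2, 118779719 to 118811293). These groups did not overlap either, but the difference was small, with means of 129 ± 8.38 TPM in KO and 161 ± 4.84 TPM in WT, a log2 difference of -0.32 (95% interval -0.55 to -0.08, limma adjusted p = 0.108). Disp1, which exports the cholesterol-modified ligand from the secreting cell (chromosome 1, 183086266 to 183221522), had 7.36, 5.17 and 5.50 TPM in KO libraries and 5.54, 3.65 and 4.95 TPM in WT libraries. Hhat, the acyltransferase that attaches palmitate to the ligand (chromosome 1, 192496711 to 192771223), had 12.1, 13.3 and 7.89 TPM in KO libraries and 8.78, 9.25 and 9.62 TPM in WT libraries. The groups overlapped for both Disp1 and Hhat, and the mean of each was nominally higher in KO. Their log2 differences were 0.30 (95% interval -0.29 to 0.88) for Disp1 and 0.22 (-0.30 to 0.74) for Hhat, so that a rise of up to 0.88 or a fall of up to 0.30 remained within the intervals.

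The receptor Ptch1 was present in every library, and the Gli factors were at or near 0. Ptch1, which binds the ligand and is also one of the pathway's own target genes (chromosome 13, 63508328 to 63573598), had 28.0, 25.2 and 36.2 TPM in KO libraries and 27.5, 30.0 and 49.9 TPM in WT libraries. The groups overlapped, and replicate 3 was the highest library in both. The means were 29.8 ± 5.70 TPM in KO and 35.8 ± 12.3 TPM in WT, a log2 difference of -0.22 (95% interval -0.76 to 0.31, limma adjusted p = 0.61). Without WT replicate 3 the difference was 0.04, and with replicates 1 and 2 only, which leaves out replicate 3 of both groups, it was -0.11. Its direction thus depended on which libraries were used. Sufu, which holds Gli proteins inactive in the cytoplasm (chromosome 19, 46396896 to 46488804), had 3.62, 1.75 and 3.94 TPM in KO libraries and 3.47, 5.96 and 3.83 TPM in WT libraries. Its groups overlapped as well (log2 difference -0.42, 95% interval -1.18 to 0.34, limma adjusted p = 0.484).

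Gli1, the activator that is itself induced by the signal (chromosome 10, 127329882 to 127341974), was listed at 0 in all 3 KO libraries and all 3 WT libraries. Gli2, the main activator of the response (chromosome 1, 118834132 to 119053619), was listed at 0 in the 3 KO libraries and at 0, 0 and 0.11 TPM in WT libraries. Gli3, which acts mainly as a repressor when no ligand is present (chromosome 13, 15463235 to 15730026), was at 0.23, 0 and 0 TPM in KO libraries and at 0.02, 0.18 and 0.36 TPM in WT libraries. These 3 genes were below the 1 TPM mean needed for the test, and no difference between genotypes could be read at such levels. The depth of the libraries is unknown, so no limit can be put on a value listed at 0.

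**Figure D1:**
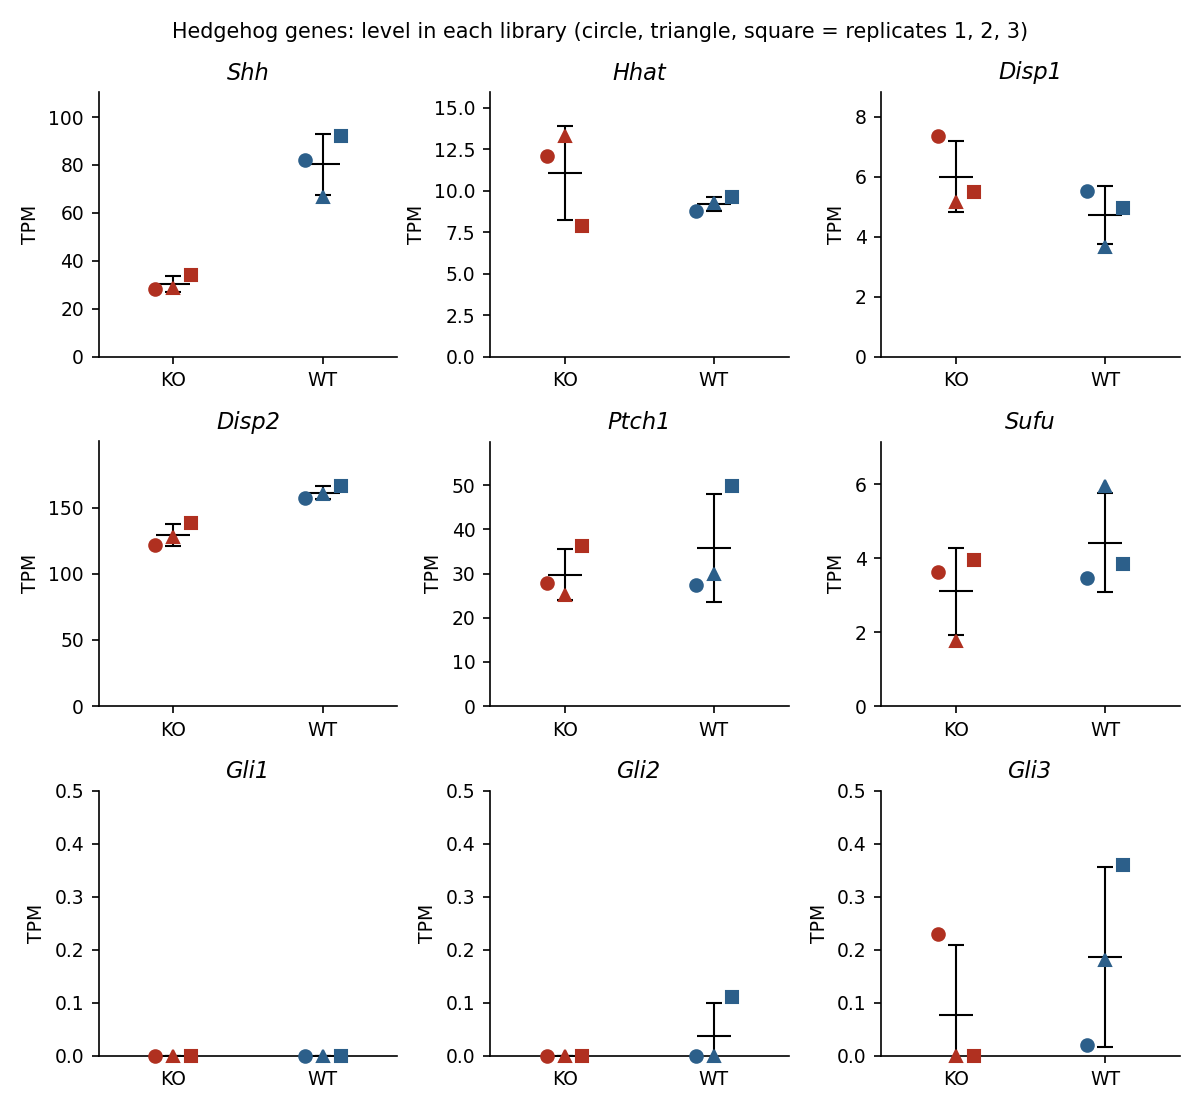
Level of each of the 9 genes found (TPM, y axis from 0, separate scale in each panel) in KO and WT libraries; symbols are single libraries, bars the mean ± SD (n = 3 each). Shh sits at 28.0 to 34.1 TPM in KO and 66.6 to 92.1 TPM in WT, Ptch1 overlaps between the groups, and Gli1, Gli2 and Gli3 stay at 0.36 TPM or less.

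Counted by side, 1 of 4 tested ligand-side members was called lower and none higher, and neither of the 2 tested response-side members was called, at an adjusted p threshold of 0.05. Over all rows tested by limma, 5.03% were called in either direction (3.17% lower and 1.86% higher in KO). The median log2 fold change was -0.05 over the 4 ligand-side members and -0.32 over the 2 response-side members, beside -0.05 over all tested rows. On the ligand side the median hides a fall of Shh beside 2 members above 0. Groups did not overlap for Shh and Disp2 among the 6 tested members, and over all tested rows they did not overlap for 28.9%.

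The change of the ligand and that of the receptor were also set against each other within each library. The ratio of Shh to Ptch1 TPM was 1.003, 1.136 and 0.943 in KO libraries, against 2.99, 2.22 and 1.84 in WT libraries, with no overlap. On the log2(TPM + 1) scale the ratio averaged 0.03 ± 0.13 in KO and 1.18 ± 0.34 in WT (SD, n = 3 each), a difference of -1.15. An exact two-sided permutation test gave p = 0.1, which is the smallest value that 3 against 3 libraries allow and so cannot pass the threshold. The ratio of Shh to Disp2 was 0.230, 0.224 and 0.247 in KO libraries and 0.522, 0.416 and 0.553 in WT libraries, also with no overlap. Shh alone already set the groups apart, so the separation of these ratios is not independent of it.

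The order of levels was nearly the same in both groups. Disp2 was the highest member, followed by Shh, Ptch1, Hhat, Disp1 and Sufu, with the Gli genes last. In KO libraries the ranges of Shh (28.0 to 34.1 TPM) and Ptch1 (25.2 to 36.2 TPM) overlapped, whereas in WT libraries the lowest Shh value (66.6 TPM) was above the highest Ptch1 value (49.9 TPM). Disp1 and Sufu overlapped in WT libraries and not in KO libraries, and at the low end the neighbours Gli3 and Gli2, and Gli2 and Gli1, overlapped in WT libraries, while Gli3 at 0.02 to 0.36 TPM lay above Gli1 at 0 there.

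Other Hedgehog genes were grouped by role from general knowledge. Of 81 such genes found, 56 were tested, of which 0 rose and 1 fell, and 55 did not pass limma at an adjusted p of 0.05. Over all tested rows 5.03% were called, 3.17% lower in KO, so at this list size a count of 1 is not set apart from the background. The median log2 fold change of the 56 genes was -0.08, beside -0.05 over all tested rows. The single call was Spp1, described below among the listed Gli targets.

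Among 5 tested genes of the other ligands and of ligand release, none passed limma, and their median log2 difference was -0.32. Dhh, the Hedgehog ligand that Schwann cells make, had 4.72, 2.76 and 6.19 TPM in KO libraries and 10.7, 8.50 and 20.1 TPM in WT libraries (chromosome 15, 98891152 to 98898540). Its groups did not overlap, and the log2 difference was -1.31 (SE 0.35, 95% interval -2.11 to -0.51, limma adjusted p = 0.0681). It passed the threshold with a term that sets replicate 3 of both groups apart (limma adjusted p = 0.0353) and with quantile normalization (0.0485); over all alternatives the adjusted p was 0.0301 to 0.191. Hhatl, a relative of Hhat, was at 37.7 ± 2.85 TPM in KO and 45.2 ± 7.58 TPM in WT. Ptchd2, a protein with a patched domain, was at 12.5 ± 2.21 TPM in KO and 9.34 ± 1.62 TPM in WT, and Adam17, a protease that sheds membrane proteins, was at 4.63 ± 1.80 TPM in KO and 6.34 ± 3.54 TPM in WT (SD, n = 3 each). Ihh, the third Hedgehog ligand, stayed at or under 0.29 TPM.

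Co-receptors and antagonists were low, with 4 of 10 reaching the test and none passing limma. The highest were the glypicans Gpc6 and Gpc5, cell surface proteoglycans. Gpc6 was at 11.5 ± 1.29 TPM in KO and 8.36 ± 2.71 TPM in WT, and Gpc5 at 7.70 ± 3.67 TPM in KO and 4.51 ± 1.17 TPM in WT. Gpc4 was at 0.38, 0.75 and 1.26 TPM in KO libraries and at 4.05, 0 and 5.90 TPM in WT libraries. Boc, a co-receptor that binds the ligand, was at 1.64 ± 0.754 TPM in KO and 2.04 ± 1.23 TPM in WT. Hhip, an antagonist that responding cells induce, did not exceed 0.08 TPM in any library.

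Genes of the primary cilium, the organelle in which the signal is transmitted, were mostly expressed, and none of the 17 tested passed limma (median log2 difference 0.00, with 9 below 0 and 8 above). Kif3a, a subunit of the motor that carries cargo into the cilium and along axons, was at 359 ± 18.4 TPM in KO and 425 ± 19.5 TPM in WT. Its partner Kif3b was at 29.7 ± 4.74 TPM in KO and 36.3 ± 4.08 TPM in WT, the transport component Ift52 at 22.6 ± 5.31 TPM in KO and 30.8 ± 5.81 TPM in WT, and the ciliary lipid phosphatase Inpp5e at 31.8 ± 1.21 TPM in KO and 34.7 ± 3.22 TPM in WT. Kif7, a kinesin that regulates Gli proteins at the cilium tip, was at 0.05, 0.21 and 0.11 TPM in KO libraries and at 0.28, 0 and 2.07 TPM in WT libraries.

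All 22 kinases, G protein genes and ubiquitin ligase genes found reached the test, and none passed limma (median log2 difference -0.08, range -0.46 to 0.28). Gnas, the stimulatory G protein subunit, was at 3781 ± 185 TPM in KO and 3706 ± 190 TPM in WT. The protein kinase A subunit genes, whose enzyme marks Gli proteins for processing, were at 667 ± 116 TPM in KO and 809 ± 125 TPM in WT for Prkar1a, and at 405 ± 24.8 TPM in KO and 390 ± 43.4 TPM in WT for Prkaca. Gsk3b, a kinase that also marks Gli proteins, was at 336 ± 11.7 TPM in KO and 392 ± 11.7 TPM in WT. Spop and Cul3, chosen for mention after their values were seen, encode 2 parts of a ubiquitin ligase that degrades Gli proteins among many other substrates. Spop was at 186, 223 and 222 TPM in KO libraries and 272, 279 and 269 TPM in WT libraries (log2 difference -0.38, limma adjusted p = 0.0793). Cul3 was at 185, 177 and 181 TPM in KO libraries and 220, 230 and 244 TPM in WT libraries (log2 difference -0.35, limma adjusted p = 0.0757). Neither gene's groups overlapped, and neither passed the test. Among the 22 genes of this list, groups did not overlap for 6 with KO below WT and for 4 with KO above WT. Over all tested rows the shares were 17.1% with KO below WT and 11.8% with KO above WT.

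Genes listed as Gli targets in other tissues ranged from rows listed at 0 to abundant transcripts. Of 23 found, 8 were listed at 0 in all 6 libraries (Foxf1, Foxf2, Foxl1, Foxa2, Foxc2, Nkx2-2, Nkx6-1 and Snai1), and 8 reached the test. One of these 8 fell and 7 did not pass limma, with a median log2 fold change of 0.03. The one that fell was Spp1, which encodes the secreted protein osteopontin and is also a marker of proprioceptors (chromosome 5, 104435118 to 104441050). Spp1 had 209, 162 and 212 TPM in KO libraries, against 542, 477 and 603 TPM in WT libraries. The groups were far apart, with a log2 fold change of -1.47 (SE 0.14, limma adjusted p = 0.00197). Nkx6-2, a homeobox gene, was at 0.15, 0 and 0 TPM in KO libraries and at 1.42, 2.31 and 1.09 TPM in WT libraries, and it was too low for the main test.

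**Figure D2:**
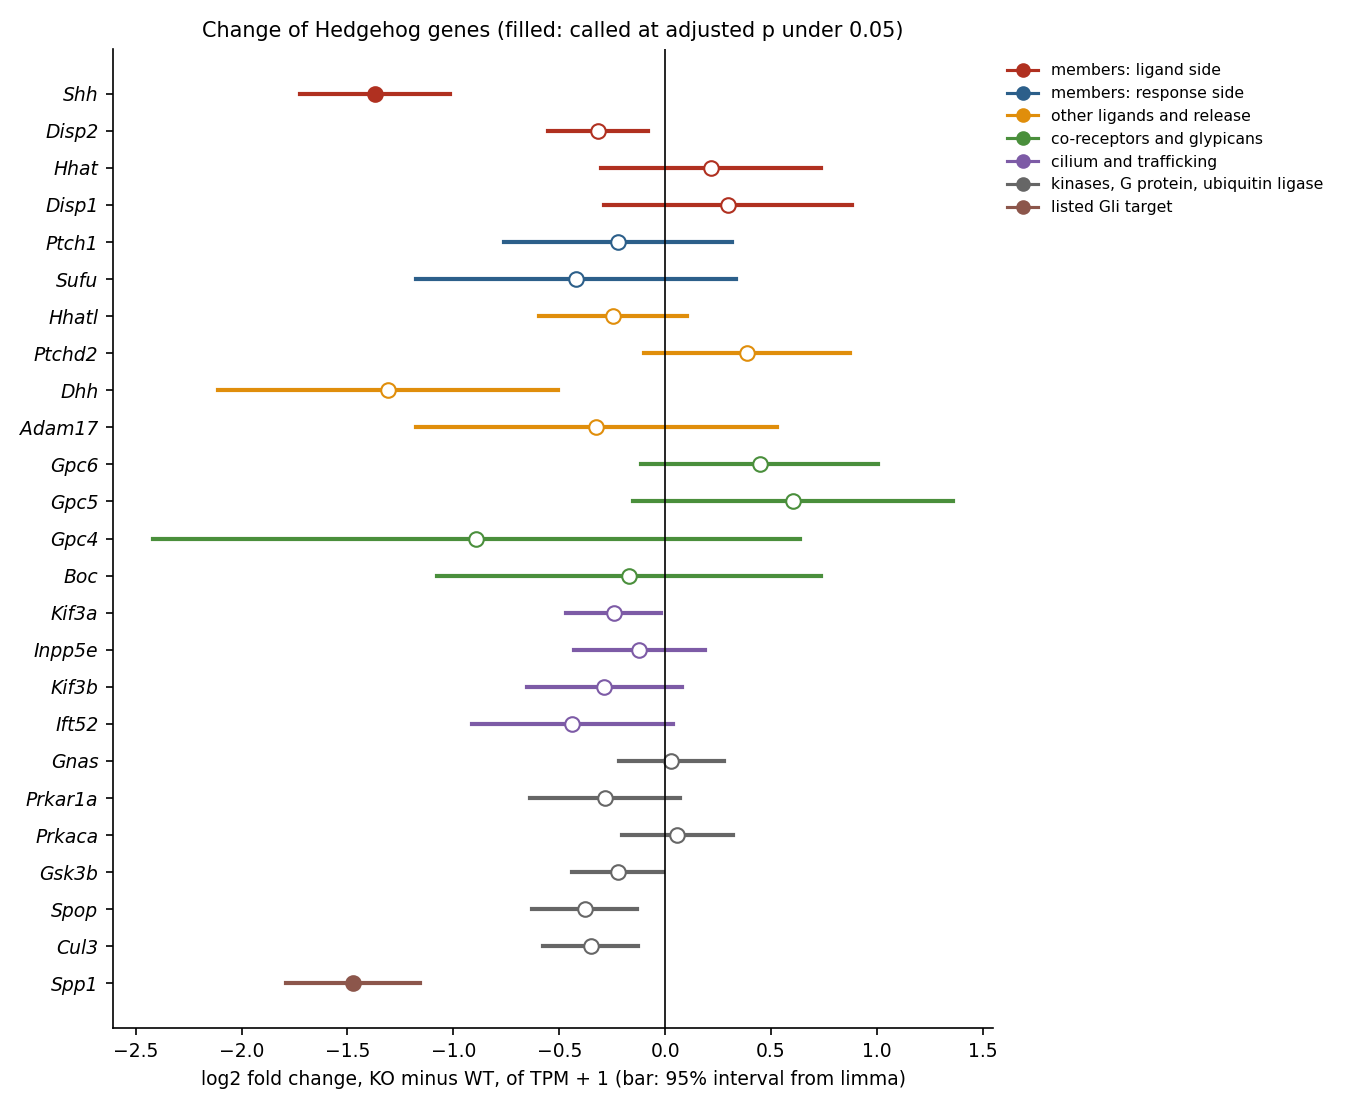
Log2 fold change of TPM + 1, KO minus WT (x axis), for the 6 tested members and the named genes of the other Hedgehog lists, with 95% intervals from limma as bars and filled circles for called genes. Shh (-1.37) and Spp1 (-1.47) are the 2 filled circles; Dhh lies at -1.31 with a wide interval, and the interval of Ptch1 spans 0.

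The rows whose pattern over the 6 libraries was most like that of Shh were Sfxn5, a mitochondrial carrier (Pearson r of log2(TPM + 1) 0.996), Ndufaf4, an assembly factor of respiratory complex I (0.995), Mtmr2, a phosphoinositide phosphatase (0.994), Ube3c, a ubiquitin ligase (0.989), and Wdr33, a factor of messenger RNA 3' end formation (0.989). They were picked from 9299 rows with a gene symbol and a mean of at least 5 TPM, of which 126 had an r of at least 0.95. The 6 points are 2 groups that differ in Shh, so any gene that is lower in KO with little spread within the groups has a high r. Among the members, r with Shh was 0.965 for Disp2, 0.499 for Ptch1, 0.480 for Sufu, -0.519 for Disp1 and -0.535 for Hhat. The 5 rows changed less than Shh: Mtmr2, at 84.1 ± 3.80 TPM in KO and 118 ± 7.12 TPM in WT, was called lower (log2 fold change -0.49, limma adjusted p = 0.0391), and the other 4 did not pass.

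**Figure D3:**
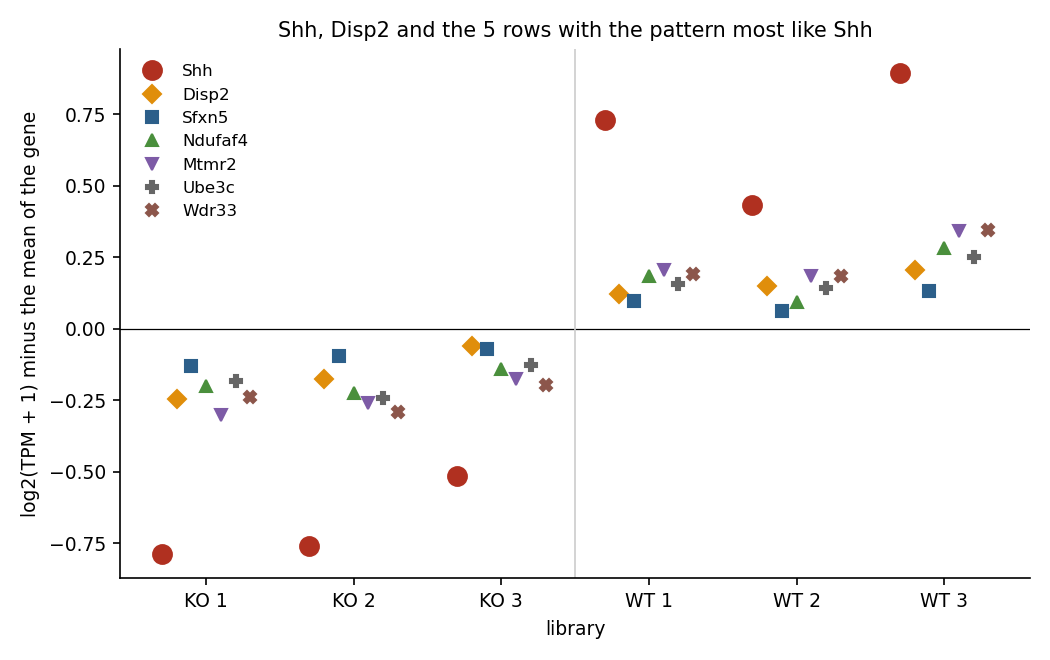
Log2(TPM + 1) of Shh, Disp2 and the 5 rows most like Shh, each minus its own mean over the 6 libraries (y axis), by library (x axis; points are offset sideways for legibility). All 7 genes lie below 0 in the 3 KO libraries and above 0 in the 3 WT libraries, and Shh has the widest separation of those drawn.

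Markers of other cell types were also measured. The counts of called markers stand beside 3.17% of all tested rows called lower and 1.86% called higher in KO. All 12 satellite glia markers, genes of the glia around the cell bodies of sensory neurons, were detected in every library, 2 of them were called lower in KO (Fabp7 and Gja1), and 11 had a lower mean in KO, while Glul was at 226 ± 16.8 TPM in KO and 149 ± 48.4 TPM in WT. Their summed level was 1793 to 2192 TPM in KO libraries and 2087 to 3094 TPM in WT libraries. S100b, which large sensory neurons also express, made up much of that sum, and without it the sum was 600, 439 and 972 TPM in KO libraries and 1339, 832 and 1847 TPM in WT libraries, so that the groups overlapped. The sum was highest in WT replicate 3, where Shh, Ptch1 and Dhh were highest as well. It was lowest in KO replicate 2, where Ptch1 and Dhh were lowest, and Shh was lowest in KO replicate 1. Ptch1 did not follow the sum in every library. It was at 27.5 TPM in WT replicate 1, at a sum of 1339 TPM, and at 28.0 TPM in KO replicate 1, at a sum of 600 TPM. The part of satellite glia in the levels of Shh, Ptch1 and Dhh was not tested.

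**Figure D4:**
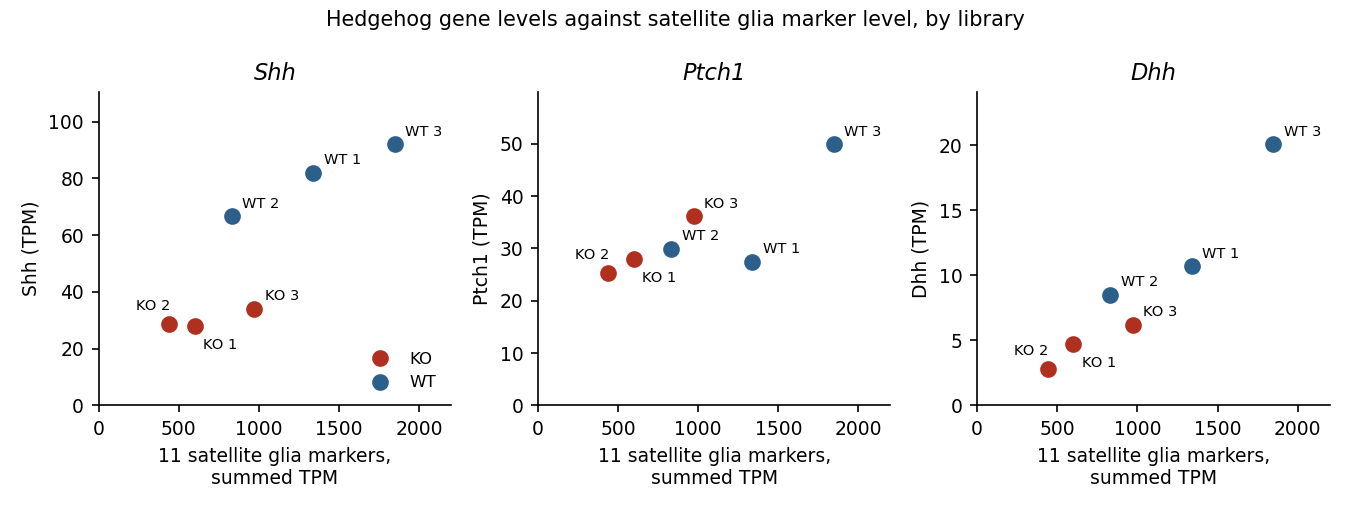
Level of Shh, Ptch1 and Dhh (TPM, y axes from 0) against the summed TPM of 11 satellite glia markers, S100b left out (x axis), with 1 point per library. The marker sum runs from 439 to 972 TPM in KO and from 832 to 1847 TPM in WT, and all 3 genes are highest in WT replicate 3, the library with the highest sum. Ptch1 in WT replicate 1 (27.5 TPM at a sum of 1339 TPM) lies below Ptch1 in KO replicate 1 (28.0 TPM at a sum of 600 TPM).

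Markers of non-neuronal cell types other than satellite glia were at low levels. The 8 Schwann cell markers summed to 8.94 to 20.3 TPM in KO libraries and 13.5 to 25.2 TPM in WT libraries, with 1 (Pmp2) at 0 throughout and 6 at 0 in at least 1 library. The 7 fibroblast and perineurial markers summed to 28.3 to 44.0 TPM in KO libraries and 22.9 to 46.3 TPM in WT libraries, mostly Dcn, with Col1a1 and Fbln1 at 0 in some libraries. The 7 endothelial and mural markers summed to 19.5 to 31.2 TPM in KO libraries and 14.6 to 21.4 TPM in WT libraries, with Cldn5 at 0 throughout, and the 7 macrophage markers to 3.99 to 6.03 TPM in KO libraries and 6.02 to 8.76 TPM in WT libraries, with C1qa at 0 throughout. None of the markers tested in these 4 lists passed limma. Transcripts of nociceptors, neurons that sense painful stimuli, summed to 162 to 210 TPM in KO libraries and 95.2 to 310 TPM in WT libraries over 7 markers, mostly Calca, with Trpv1, Mrgprd, Scn10a and Tac1 at 0 in some libraries. Of the 5 tested nociceptor markers, Tac1 was called lower and 4 did not pass, and the median log2 fold change of the 5 was 0.42. Tac1 was at 3.20, 4.08 and 0 TPM in KO libraries and at 37.6, 43.5 and 19.7 TPM in WT libraries. Its log2 fold change was -3.57 (limma adjusted p = 0.0128). Calca overlapped between the groups (log2 difference 0.10, limma adjusted p = 0.907). Scn10a was at 13.4, 17.1 and 14.1 TPM in KO libraries and at 7.38, 7.44 and 0 TPM in WT libraries, with no overlap (log2 difference 1.93, limma adjusted p = 0.144). The 8 pan-neuronal markers summed to 29752 to 31366 TPM in KO libraries and 36021 to 40614 TPM in WT libraries, mostly Nefm and Snap25, and Rbfox3 was called higher. The 8 proprioceptor markers found summed to 637 to 861 TPM in KO libraries and 1555 to 1691 TPM in WT libraries. The proprioceptor sum was thus lower in the KO libraries than in the WT libraries, as Shh was. Within KO the sum was highest in replicate 1 (861 TPM), where Shh was lowest (28.0 TPM). Within WT both were lowest in replicate 2 (1555 TPM for the sum, 66.6 TPM for Shh). The part of proprioceptor markers in the fall of Shh was not tested.

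Promoter windows of the members were searched for the Gli consensus GACCACCCA on both strands, from 250 bases before to 50 bases after each gene's start in RefSeq (GRCm38.p6). Windows were at hand for 7 of the 10 names (Hhat, Disp1, Ptch1, Smo, Sufu, Gli2 and Gli3), in 8 windows, and 0 of these held the motif, against 0.253% of all 32851 windows. This says only that these letters are not in these windows. At so low a share, 0 of 8 windows was to be expected, and no window was at hand for Shh, Disp2 or Gli1.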

How the data were processed

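RNA of 6 libraries was measured by sequencing. Per the labels' protocols, RNA was extracted with the PicoPure kit and amplified as cDNA with an Ovation kit, a step that adds noise where a transcript is rare. The submitters' processing notes name cutadapt, Bowtie2, RSEM 1.2.7 and the genome build mm10; which annotation was used is not stated there. The TPM values, deposited by the authors as 1 table, have 1 column per library. TPM keeps no depth, so precision rests on the spread between libraries, and a rise of abundant transcripts lowers other values.

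limma 3.58.1 (R 4.3.3) was run on log2(TPM + 1) with an intensity trend and genotype as the only term, for the 13787 rows that averaged 1 TPM or more. Tests were two-sided, with Benjamini-Hochberg adjustment over all tested rows and a threshold of 0.05. Fold changes are KO minus WT on that scale and understate changes of low genes. An exact permutation test of 3 against 3 cannot go below 0.1. Where a name had several rows (Gnas among the genes described), the highest row by mean level was taken. Python 3.11.15, NumPy 2.4.6 and pandas 2.3.3 made the other tables. GENCODE vM21 (GRCm38, the assembly of mm10) gave the coordinates.

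The members and gene lists were chosen with earlier results of these data known. The text names every member, Dicer1 and Pvalb, called genes of each other list or otherwise its 4 highest, and the 5 rows most like Shh. Genes named outside that rule (Ddx3y, Ihh, Hhip, Kif7, Spop, Cul3, Nkx6-2, those listed at 0 and markers) were chosen after their values were seen. Names not among the rows were Smo, Disp3, Grk2, Foxf1a and Whrn; the first is not analysed here, and Ptchd2, Adrbk1 and Foxf1, older or other symbols, stood in the lists for the next 3. On simulated data for 13787 rows of KO against WT, with 200 changed rows in each of 10 runs, the test recovered 13.1% of 1.5-fold, 50.9% of 2-fold and 87.4% of 4-fold changes, and called 0.0589% of unchanged rows. Alternatives changed the pseudocount, filter, scaling, trend, replicate terms, libraries used and the handling of names with several rows.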

Additional observations from a re-analysis of the deposited data

How the results depend on the processing

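Shh stayed called lower under all 16 alternatives, with log2 fold changes of -1.50 to -1.27 and limma adjusted p of 0.00275 to 0.0243; leaving out single libraries gave the same range of fold changes. No other member was called under any alternative in which it was tested, and Sufu was not tested at a mean of at least 5 TPM. Over all rows, 256 were higher and 437 lower in KO. The counts were 130 and 248 with no filter, 65 and 139 with replicates 1 and 2 only, and 57 and 168 without the intensity trend. With median-of-ratios rescaling they were 375 and 385, so that higher rows made up 49.3% of calls in place of 36.9%, and with quantile normalization 389 and 461. Leaving out 1 library gave 48 to 348 higher rows and 116 to 487 lower rows, with 48 and 116 without KO replicate 1, 88 and 168 without KO replicate 2, 131 and 194 without WT replicate 2, and 99 and 166 without WT replicate 3. Of the other Hedgehog lists, 1 gene (Spp1) was called lower, and 2 with quantile normalization, the replicate block and the term for replicate 3 (Dhh in addition) and with no filter (Nkx6-2 in addition, log2 fold change -1.29, limma adjusted p = 0.0428).

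The sign of some log2 differences that did not pass turned when 1 library was left out, and the cause was not tested. Over the 6 such fits Ptch1 ranged from -0.38 to 0.036 and Adam17 from -0.58 to 0.044, each above 0 without WT replicate 3. With replicates 1 and 2 only, which leaves out replicate 3 of both groups, Ptch1 was -0.11 and Adam17 -0.21. Boc ranged from -0.39 to 0.14 and Prkaca from -0.035 to 0.12, turning without WT replicate 2. Gnas ranged from -0.0059 without KO replicate 1 to 0.0697, and was -0.0016 without WT replicate 3. Whether the replicate numbers pair the libraries cannot be told from 3 libraries per group. Deviations from the group means correlated at 0.049, 0.066 and 0.038 for the same number, and at -0.098 to 0.07 for different numbers. By Ddx3y, replicate 3 differed in sex from replicates 1 and 2 in both groups, so the numbers line up in that respect. With the replicate block, 188 rows were higher and 341 lower, Shh changed by -1.37 (limma adjusted p = 0.00671) and Dhh by -1.31 (0.0301).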
